A study of Mus musculus with 4 samples.

Results

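Wild-type mouse oocytes before and after meiotic maturation were compared as 1 library each, labelled GV and MII. A GV oocyte (germinal vesicle, the intact nucleus of meiotic arrest) is fully grown, and an MII oocyte is the mature egg, waiting in metaphase of meiosis II. Genes entered the comparison when their FPKM (fragments scaled to transcript length and library total) reached 5 in at least 1 of the 2 libraries, which held for 7923 of the 23309 gene symbols in the files. For each gene the ratio was log2((MII FPKM + 1)/(GV FPKM + 1)), a scale that understates the change of low genes. A ratio of at least 2-fold on it was called higher or lower, as a rule of size, since 1 library per stage leaves no test and no p-value. Just outside the 5 FPKM limit lay Arhgap29, with 4.999 FPKM at GV and 2.31 at MII.

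Both libraries came from wild-type females of the ICR strain, 21 to 23 days old, and pooled 60 oocytes each. The labels name the hormones PMSG and hCG, which drive follicle growth and the resumption of meiosis, without saying which applied to each library. The series holds a further GV library and a further MII library, of ICR oocytes labelled Erk-/- and handled by the same protocol, which are shown beside the wild-type values and are no replicate of them. Their treatment text names Btg4-/- mice instead, the allele and any driver of deletion are not stated there, and the design text speaks of single oocytes where the extraction text pools 60. FPKM is relative to the total of its own library, so it does not measure mRNA per oocyte, and less mRNA in every oocyte cannot be told apart from fewer oocytes that carry it.

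A fully grown oocyte is nearly silent in transcription and runs meiosis, fertilisation and the start of embryonic life on mRNA that it stored while growing. During maturation a part of this store is deadenylated and cleared, largely through the CCR4-NOT deadenylase that the adaptor BTG4 brings to translated messages. Other dormant messages are given longer poly(A) tails by cytoplasmic polyadenylation, which CPEB1 directs from a U-rich element close to the AAUAAA hexamer, and are then translated. A method that selects mRNA by its poly(A) tail reads tail length as well as abundance, and whether these libraries were made in that way is not known here.

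The ends of 10 annotated transcripts are shown because this element is the sequence feature that, of those examined, went with the widest difference in ratio. Each line gives the 24 bases before the hexamer and the hexamer, 5′ to 3′, from the GENCODE M21 transcript of the gene (GRCm38). Capitals mark the hexamer and, where present, TTTTAT or TTTTAAT. The genes were chosen after their values were seen, 4 with the element and 6 without it.
Bcl2l10: catTTTTAATaacttcaaattcttAATAAA
Cnot7: aagtcttaaggtacaTTTTATatcAATAAA
Wee2: cataTTTTAATccagatcattgtaAATAAA
Gdf9: tgctgtggTTTTATgtgacggaagAATAAA
Actb: tggcctgtacactgacttgagaccAATAAA
Zp1: aggcatcagatattaaatggactcAATAAA
Zp2: gttcaatcactgattggacttgcaAATAAA
Npm2: cccagcaagctcgcctagggccacAATAAA
Padi6: atgtaaacaaattgccatagagccAATAAA
Tacc3: gtgtgcagagctgggtagccctgtAATAAA
The log2 ratios of Bcl2l10, Cnot7, Wee2 and Gdf9 were 3.13, 3.08, 1.96 and 0.45. Those of Actb, Zp1, Zp2, Npm2, Padi6 and Tacc3 were -3.76, -4.34, -5.08, -5.61, -6.16 and -6.63. The 3′ UTRs of Zp1 and Zp2 are so short, 34 and 49 bases, that part of the window printed for each is coding sequence.

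Most of the oocyte's transcripts were lower at MII than at GV, and a smaller set held most of the FPKM at MII. Of the 7923 genes, 4273 were at least 2-fold lower (53.9%), 1716 at least 2-fold higher (21.7%) and 1934 within 2-fold, so 75.6% were 2-fold apart in either direction. The median log2 ratio was -1.29, with quartiles of -3.10 and 0.73. The genes called lower held 61.9% of all FPKM at GV and 9.16% at MII, whereas those called higher held 14.0% and 62.6%. At GV 494 genes made up 50% of the FPKM, and at MII 222 did. Large ratios were mostly downward, with 2110 genes at least 8-fold lower against 324 at least 8-fold higher. At 32-fold the counts were 421 and 25. The lists of genes below are read against the median of -1.29 and the shares of 53.9% and 21.7%.

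**Figure D1:**
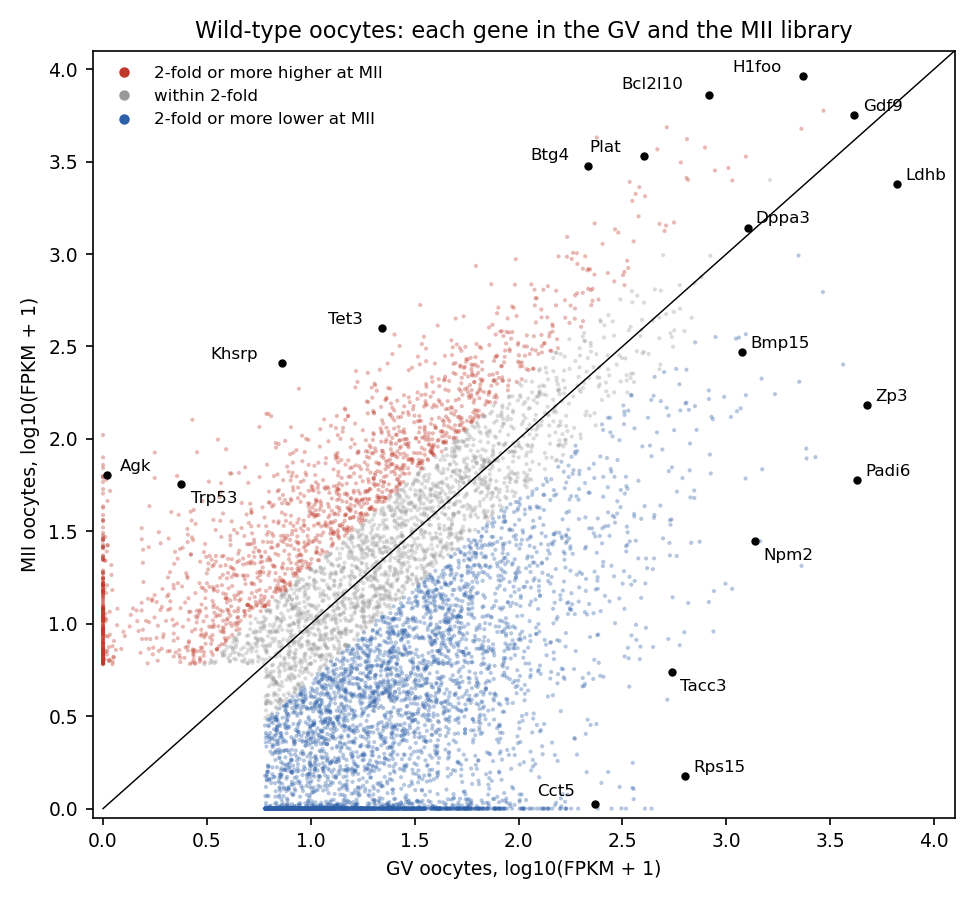
Each point is 1 of the 7923 genes, with log10(FPKM + 1) in the wild-type GV library on the x axis and in the wild-type MII library on the y axis, coloured by the 2-fold rule; black points are named genes and the line marks equal values. More points lie below the line (4273 lower) than above it (1716 higher), and Padi6, Zp3 and Npm2, among the most abundant genes at GV, lie far below it.

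The shift was larger than the difference between the 2 GV libraries of the series, the nearest thing to a repeat that these files hold. Among genes with a mean of 50 to 200 FPKM, 15.6% were 2-fold apart between wild-type and Erk-/- GV oocytes, and 68.5% were between wild-type MII and GV. Above 200 FPKM the shares were 7.57% and 71.9%, and between 5 and 20 FPKM they were 49.1% and 76.0%, so single genes of low level are less certain. In the pair of libraries labelled Erk-/-, where 33.7% of the same genes were 2-fold lower and 22.9% 2-fold higher, 2334 of the 4273 genes (54.6%) were again lower and 347 were higher. Of the 1716 genes higher in wild type, 1003 (58.4%) were again higher there and 92 lower. Binned by their level in Erk-/- GV oocytes, which the ratio does not contain, genes of 5 to 10 FPKM had a median log2 ratio of -1.18, and the 97 genes of at least 500 FPKM had -2.17. The bins between had medians from -0.99 to -1.58, with no steady fall.

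A second scaling bears on every direction given here. The median-of-ratios factor, which assumes that the typical gene is equal in both libraries, raises every ratio by up to 0.84 on the log2 scale and moves the median of all genes from -1.29 to -0.54. With it 2500 genes were 2-fold higher and 3499 lower, so the share of higher genes among those 2-fold apart was 41.7% in place of 28.7%. Exact zeros need care as well, because they can be failed estimates. Of the 1104 genes listed at 0 at MII, 251 had at least 5 FPKM in the MII library labelled Erk-/-, and of the 231 listed at 0 at GV, 65 had that level in the Erk-/- GV library. The depth of the libraries is unknown, and the bounds deposited beside the values had a median half-width of 9.93% of the value at GV and 9.98% at MII. Only rows of at least 5 FPKM whose value did not exceed its upper bound entered this median. Some values lie below their lower bound, such as Dnmt1 at GV (861.2 against 865.5). The bounds cover a library's own uncertainty only.

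Markers fitted the labelled cell. All 10 oocyte markers, among them Gdf9, Zp3 and Dazl, had at least 5 FPKM in both libraries. Of 17 granulosa and cumulus markers, 2 reached 5 FPKM at GV and 1 at MII, 12 and 14 were listed at 0, and their summed level was 28.9 and 24.9 FPKM. Amh, Foxl2, Fshr, Ptx3 and Tnfaip6, which define these cells, were listed at 0 in both, and most of the sum was Cyp19a1 (15.5 and 21.8 FPKM). Of 11 markers of blood, vessel and stroma only Pecam1 reached 5 FPKM (25.6 and 48.6), and Ptprc, Hba-a1 and Col1a1 were listed at 0. None of 9 genes of the 2-cell embryo reached 5 FPKM in either library.

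The egg coat and its exocytosis showed the lowest median of the 49 lists with members. Of 12 genes for the zona pellucida and for cortical granules, 8 were lower and 3 higher (median -4.13, and -1.92 at a minimum of 1 FPKM). The zona is the glycoprotein shell of the egg, and its structural genes were among the most abundant at GV. Zp3 (mm9 chr5:136455975-136464494) had 4768 FPKM at GV and 151 at MII, Zp2 had 2687 and 78.7, and Zp1 had 1238 and 60.0. All 3 were thus between 20.6-fold and 34.2-fold lower, and they were also lower in the Erk-/- pair, with log2 ratios of -2.83, -2.01 and -1.85. Calr, a chaperone of the endoplasmic reticulum, had 448 and 21.6 FPKM. Astl, which encodes the cortical granule protease that cuts ZP2 after fertilisation, stood apart with 598 FPKM at GV and 505 at MII. Plat, the tissue plasminogen activator and a classic message of cytoplasmic polyadenylation, had 400 and 3374 FPKM.

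Messages for the proteins that line the cortex and fill the cytoplasmic lattices were lower almost throughout. In the list of the subcortical maternal complex, the lattices and NLRP genes, 13 of 16 were lower and 1 higher (median -2.41). Padi6, whose product builds the lattices (mm9 chr4:140283270-140298558), had 4264 FPKM at GV and 58.7 at MII. Tle6 and Khdc3, parts of the subcortical complex, had 2245 and 495 FPKM at GV and 203 and 28.0 at MII. Nlrp9b was 20.1-fold lower, whereas Nlrp4a and Nlrp4b were 1.57-fold and 1.70-fold lower. Zbed3, also placed at the cortex with this complex, had 2938 FPKM at GV and 5963 at MII, the single higher member. In the Erk-/- pair Padi6 had a log2 ratio of -1.86, but those of Tle6, Nlrp5 and Nlrp14 lay between -0.10 and 0.00, against -3.46, -3.003 and -4.78 in wild type. Several Nlrp genes are near-identical copies, and how the reads they share were assigned is not known here.

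Maternal-effect genes at large, those that the embryo needs from the egg, were divided. Of 28, 17 were lower and 7 higher (median -1.65), yet their summed level was 115.6% of that at GV because the higher members were so abundant. Npm2, which organises the nucleoli of the oocyte, had 1372 FPKM at GV and 27.0 at MII. Uchl1, a deubiquitinase, had 2919 and 622. On the other side, Bcl2l10, an oocyte member of the BCL2 family (mm9 chr9:75195565-75199447), had 826 FPKM at GV and 7221 at MII. It was one of the 10 most abundant genes at MII, together with H1foo, Gdf9, Zbed3, Oosp1 and Tcl1. Tcl1, a co-activator of AKT, had 789 and 3768 FPKM. The remaining 4 of those 10 were D6Ertd527e, E330034G19Rik, AU022751 and C86187, with 4182, 3688, 4853 and 4271 FPKM at MII and were 6.47-fold to 18.0-fold lower at GV. Whether these genes share reads with relatives elsewhere in the genome was not tested, so their values are uncertain. The 10 most abundant genes took 8.13% of the summed FPKM at GV and 13.3% at MII.

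Growth factors and surface proteins of the egg were mixed. Of 19 genes 6 were higher and 8 lower, with a median of -0.38 that became 0.43 under median-of-ratios scaling. The secreted partners GDF9 and BMP15, which signal to the cumulus cells, parted: Gdf9 had 4139 and 5635 FPKM, and Bmp15 1189 and 293. In the Erk-/- pair both were slightly higher at MII, with log2 ratios of 0.54 and 0.31. Oosp1, an oocyte-secreted protein gene, had 2299 and 4760 FPKM. The egg's sperm receptor gene Folr4 (Juno) and Cd9, a tetraspanin needed for membrane fusion, had 334 and 82.3 FPKM at GV and 30.2 and 9.34 at MII. Gja4, the connexin of the junctions with cumulus cells, was 13.5-fold lower. The adhesion genes Cdh1 and Ctnnb1 (E-cadherin and β-catenin) were 4.75-fold and 4.78-fold higher.

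In the machinery that removes mRNA, subunits of 1 complex differed. Among the CCR4-NOT and BTG genes 5 of 15 were higher and 7 lower (median -0.87), and their summed FPKM at MII was 498% of that at GV, most of it from Btg4. Btg4 (mm9 chr9:50924106-50927805) had 216 FPKM at GV and 2987 at MII. The deadenylase gene Cnot7 had 53.4 and 459, and Cnot6l, another catalytic subunit, 77.9 and 226. The scaffold gene Cnot1 had 34.8 and 2.68, and Cnot3 and Cnot11 were within 1.33-fold. The list of decapping and 5′-to-3′ decay, which also holds PAN2-PAN3, was divided: of 18 genes 8 were higher and 7 lower (median 0.48). Dcp1a, the decapping activator, had 96.0 and 937.5 FPKM, and the PAN2-PAN3 deadenylase genes had 31.7 and 6.35 at GV and 177 and 48.8 at MII. Upf1, the helicase of nonsense-mediated decay, had 39.8 and 409, although 5 of the 13 genes of that pathway were lower and 3 higher, with a median of -0.05 that scaling turned to 0.70. Of 15 subunits of the exosome, which degrades RNA from its 3′ end, 9 were lower and 3 higher (median -2.17), and Exosc4 had 45.2 and 1.69 FPKM. Without the 4 listed at 0 the exosome median was -0.54, and the summed FPKM of the list at MII was 309.9% of that at GV. The decay factor Khsrp, which binds AU-rich elements, had 6.24 and 256, while 8 of the 12 genes in its list were lower (median -1.66). Among 12 genes of the m6A pathway 3 were higher and 5 lower (median 0.25). The writer subunit Wtap and the reader Ythdf3 were 10.3-fold and 5.64-fold higher and the reader Ythdf2, known for maternal mRNA clearance, 6.49-fold lower.

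Storage factors had a median below that of all genes, and factors that act on poly(A) tails were mixed. Of 17 storage and dormancy genes 10 were lower and 2 higher (median -2.41). That share of lower genes is near the 53.9% of all genes. In the Erk-/- pair 6 of the 17 were lower and 1 higher (median -0.77). Ybx2 and Csda, the Y-box proteins that coat stored mRNA, had 547 and 407 FPKM at GV and 69.2 and 15.5 at MII. Eif4e1b, the oocyte's cap-binding protein, had 1126 and 140. Lsm14b, an RNP granule gene, was at 390 and 387. In the polyadenylation list, 7 of 17 were lower and 4 higher, and the median of -0.47 became 0.32 under scaling. Cpeb1 was 17.4-fold lower, the poly(A) polymerase gene Papola had 26.8 and 28.6 FPKM, and Cpeb4, listed at 0 at GV in either genotype, had 22.4 FPKM at MII here and 23.1 in the library labelled Erk-/-. Of the poly(A)-binding proteins and their partners, 4 of 9 were higher and 5 lower (median -1.87, and -0.07 at a minimum of 10 FPKM), none within 2-fold, and their summed FPKM at MII was 124.9% of that at GV. Pabpc1l, the embryonic cytoplasmic form, had 208 and 10.6 FPKM and the inhibitor gene Paip2 201 and 17.6. The activator Paip1 had 42.8 and 206, and the poly(A)-binding protein genes Pabpn1 and Pabpn1l had 40.3 and 231 at GV and 209 and 773 at MII.

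Messages known to be translated during maturation had the highest median of the 49 lists (1.53), with 12 of 15 higher and 1 lower. Their summed FPKM at MII was 494% of that at GV. In the Erk-/- pair 7 of the 15 were higher and 1 lower (median 0.98). Bub1b, a spindle checkpoint kinase, had 301 and 1305 FPKM, and Ccnb1, the cyclin of CDK1, 209 and 973. Mos, the kinase upstream of MEK and ERK in oocytes, had 333 and 919, and Wee2, the oocyte inhibitor of CDK1, 128 and 500.5 (named after its value was seen). The lower gene was Fbxo5 (EMI1), an inhibitor of the anaphase-promoting complex, with 86.4 and 2.91. Since the list was chosen with earlier results of these data known, its direction is no independent evidence.

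Regulators of the meiotic divisions were found on both sides. In the list of the CDK1 and cyclin B switch, 6 of 20 were higher and 8 lower, with a median of -0.18 that became 0.65 under scaling. Cdk1 itself (mm9 chr10:68799383-68815660) had 90.3 and 0.033 FPKM, and 31.5 and 11.4 in the Erk-/- libraries. Its activating phosphatase gene Cdc25b had 73.7 and 6.13, while Ccnb2 and Mastl, the Greatwall kinase, were within 1.07-fold. Of 29 genes of the anaphase-promoting complex and the spindle checkpoint 15 were lower and 7 higher (median -1.19). The checkpoint kinase Ttk and the activator Fzr1 (CDH1) were 29.5-fold and 13.2-fold lower, and the ubiquitin-conjugating enzyme Ube2s had 759 and 748.5. Cohesin and its regulators had a median of 0.63, with 6 of 17 higher and 5 lower, and the release factor Wapal had 19.4 and 194. In the MAPK cascade, 4 of 11 were higher and 4 lower, and the median of -0.44 became 0.37 under scaling. Map2k1 (MEK1) had 83.6 and 359, Dusp7, an ERK phosphatase, 65.9 and 236, and Mapk3 (ERK1) 333 and 25.7. Mapk3 had 52.3 and 34.3 in the GV and MII libraries labelled Erk-/-, so at MII its level does not go with the genotype label. Of 13 genes that act on the GV arrest through cAMP 5 were higher and 5 lower, with a median of 0.12 that was -0.13 at a minimum of 10 FPKM. Gnas, which encodes the stimulatory G protein, had 443 and 6.49 FPKM and the receptor Gpr3 45.4 and 11.1. The phosphodiesterases Pde3a and Pde3b had 51.7 and 11.5 at GV and 61.2 and 34.6 at MII, and the kinase anchor Akap10 was 2.41-fold higher.

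In the cytoskeleton of the spindle and cortex, tubulins were mostly lower and the other lists were mixed. Of 15 tubulin genes 13 were lower and 2 higher (median -2.09), against 4 lower and 1 higher in the Erk-/- pair (median -0.79). Tubb4b and Tubb2a had 841.5 and 833 FPKM at GV and 64.0 and 81.3 at MII, and Tuba4a had 185 and 1.41. Tubb3, named after its value was seen, went the other way with 253 and 1134. The γ-tubulins Tubg1 and Tubg2, which nucleate microtubules, were both 2.08-fold lower. Tacc3, which stabilises spindle microtubules, had 544.5 and 4.49, whereas 9 of 32 spindle assembly genes were higher and 15 lower, a list whose median of -0.60 became 0.22 under scaling. Pcnt, of the microtubule-organising centres, had 48.8 and 48.3. Kinesins had a median of -0.08 that became 0.69, with Kif17 24.5-fold lower and Kif20a 2.79-fold higher. Among 30 actin and actin-nucleating genes 17 were lower and 3 higher (median -1.12). Actg1, a cytoplasmic actin, had 202 and 3.58 FPKM, and Cdc42, which polarises the cortex over the spindle, 61.5 and 64.4.

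**Figure D2:**
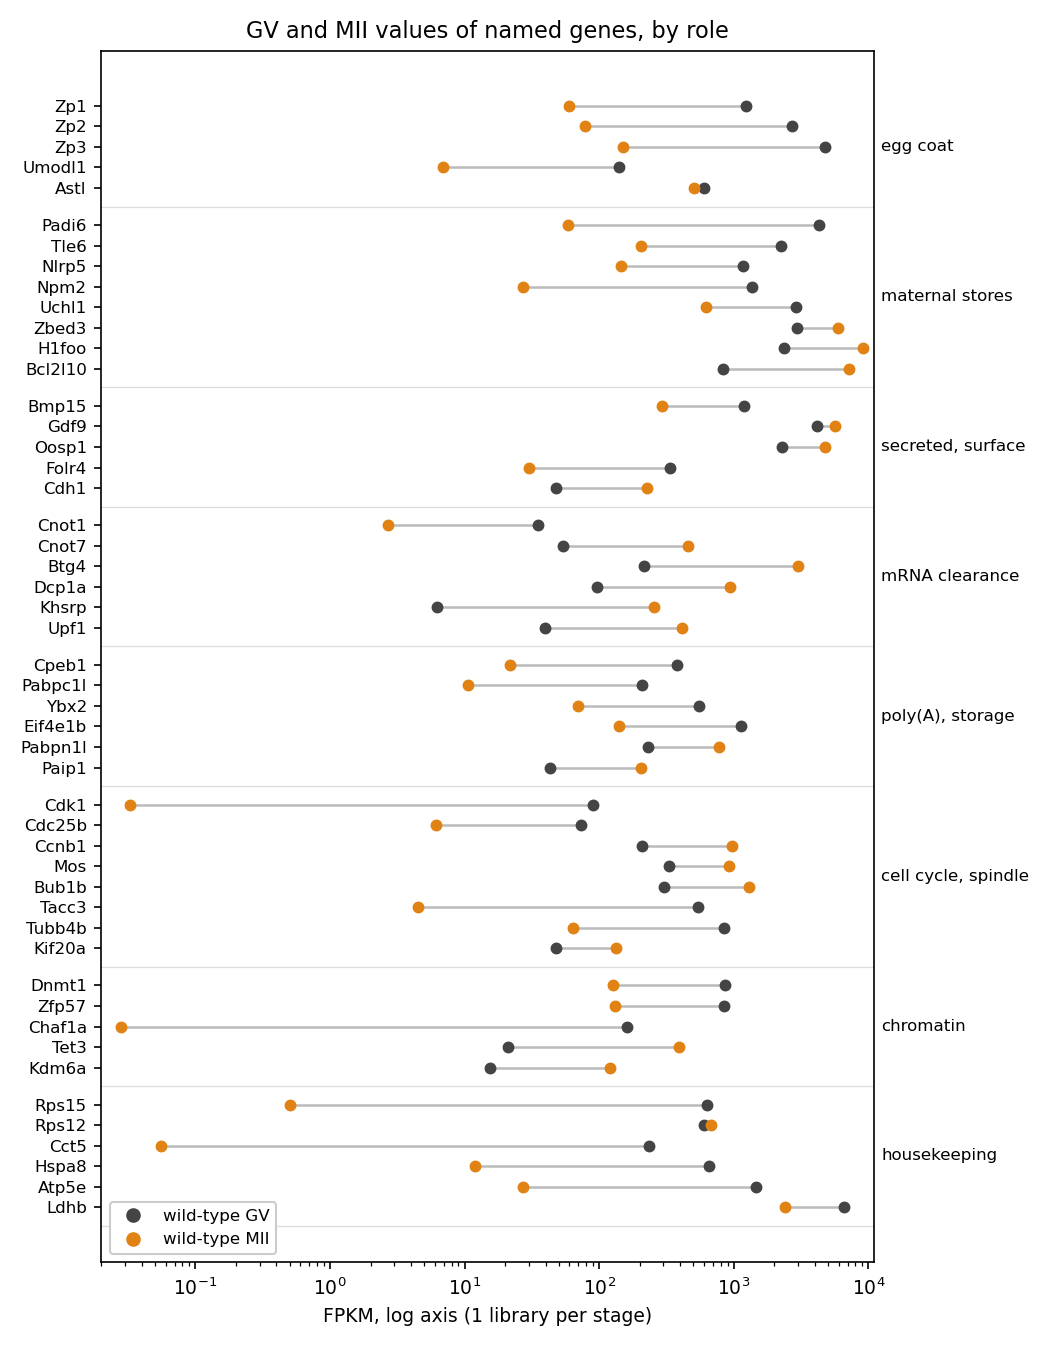
For 49 genes in 8 roles, dark points give FPKM in the wild-type GV library and orange points FPKM in the wild-type MII library, on a log axis, with a line joining the values of a gene. The genes are a selection: of those drawn, Astl alone in the egg coat is less than 20.4-fold lower and Cnot1 alone in mRNA clearance is lower, whereas in the full lists 3 of 12 zona and cortical granule genes were higher and 7 of 15 CCR4-NOT and BTG genes lower.

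Chromatin genes included some of the most abundant messages of the egg. Of 23 histone genes with 5 FPKM, out of 82 in the files, 12 were higher and 8 lower (median 1.09). In the Erk-/- pair 8 of the 23 were higher and 7 lower (median 0.0). In wild type 10 of them were listed at 0 in a library, without which the median was 0.50. H1foo, the oocyte linker histone (mm9 chr6:115894957-115900251), had 2353 FPKM at GV and 9139 at MII, the highest value of that library. Replication-dependent histone mRNAs have no poly(A) tail in most cells and are near-identical copies, so the small values of that class are uncertain. Histone chaperones had a median of -0.04 that became 0.76 under scaling. Chaf1a, of the assembly factor CAF-1, had 160 and 0.028 FPKM, and 208 and 22.1 in the Erk-/- pair. In DNA methylation and imprint protection 9 of 15 were lower and 5 higher (median -1.60). The maintenance methyltransferase Dnmt1 had 861 and 127 and the imprint protector Zfp57 848 and 131. Tet3, which oxidises methylated cytosine in the zygote (mm9 chr6:83312368-83391672), had 21.1 and 395, and Dppa3, its antagonist on maternal chromatin, 1265 and 1391. Lysine methyltransferases and demethylases had a median of -0.19 that became 0.61, Kdm6a, an H3K27 demethylase, being 7.82-fold higher and Setd4 57.1-fold lower. Among 20 oocyte transcription factors 7 were higher and 10 lower, with a median of -0.70 that became 0.01 under scaling and 0.48 at a minimum of 10 FPKM. Nobox and Lhx8, which drive early oocyte growth, had 335 and 95.1 FPKM at GV and 6.40 and 3.91 at MII, and Obox2 and Sall4 had 604 and 46.8 at GV and 3128 and 283 at MII.

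Genes of protein synthesis were among the lowest lists. Of 79 cytosolic ribosomal protein genes 71 were lower and 1 higher (median -3.30), and their summed level at MII was 21.0% of that at GV. Rps15 (mm9 chr10:79755176-79756859) had 633 and 0.504 FPKM, against 218 and 29.1 in the Erk-/- pair. Rps12 and Rps28 were exceptions, with 596 and 392 at GV and 678 and 440 at MII. Many processed pseudogenes share these sequences, which makes single values uncertain, and their part in the ratios was not tested. In the Erk-/- pair 52 of the 79 were lower (median -1.97). In mitochondrial ribosomal proteins 48 of 67 were lower and 5 higher (median -2.70), and 20 of the 67 were listed at 0 in a library. Of 53 initiation and elongation factors 34 were lower and 7 higher (median -2.61), with Eif3c at 85.5 and 0.098 FPKM. Of 27 aminoacyl-tRNA synthetases 20 were lower and 1 higher (median -2.60), and Qars, which charges glutamine tRNA, had 238 and 7.68.

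Proteasome, heat-shock and respiratory genes shared this direction, the respiratory lists lying closer to the median of all genes. F-box genes, also of protein turnover, did not stand out: of 53, 26 were lower and 11 higher (median -0.82, against -1.29 for all genes). Of 33 proteasome subunits 26 were lower and 2 higher (median -3.31), with Psmc2, an ATPase of the cap, at 81.1 and 1.04 FPKM, while Psmb3 and Psmb6 were within 1.11-fold. Of 54 heat-shock and chaperonin genes 35 were lower and 6 higher (median -2.48). Hsp90aa1 and Hspa8 had 1067 and 655 at GV and 14.5 and 12.0 at MII, but Hspe1, the mitochondrial co-chaperonin, had 137 and 135. In respiratory complex I, 26 of 35 were lower and none higher (median -1.95). Complexes II to V gave 27 of 43 lower and 1 higher (median -1.64), with Atp5e at 1456 and 27.0 FPKM and Atp5b, the catalytic ATP synthase subunit, at 243 and 242. Mitochondrially encoded genes had no entry in the files. Ldhb, a lactate dehydrogenase and the most abundant gene at GV, had 6619 and 2389 FPKM, and 4372 and 6356 in the Erk-/- pair. Common reference genes gave no fixed point: 9 of 12 were lower and 2 higher (median -1.90), from Actb with 72.5 and 4.42 FPKM to Hprt with 24.2 and 125. The Erk-/- pair had 3 of the 12 lower and 2 higher (median -0.09).

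Broader classes ran from low to near 0. Of 132 Zfp zinc-finger genes 86 were lower and 19 higher (median -2.17), and of 45 DEAD- and DEAH-box helicases 30 and 6 (median -2.62). Solute carriers were closer to the median of all genes, with 52 of 105 lower and 30 higher (median -0.93). Splicing factors and hnRNP proteins had a median of -0.01 that became 0.81 under scaling, with 25 of 87 higher and 24 lower. In the p53 and BCL2 family 6 of 14 were higher and 4 lower (median 0.57). Trp53 had 1.36 FPKM at GV and 55.8 at MII, with 0.073 and 48.5 in the Erk-/- pair, and its inhibitor gene Mdm2 had 26.2 and 130.5. In all, 23 lists lay below the median of all genes and 26 above it, and 7 had a median above 0.

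**Figure D3:**
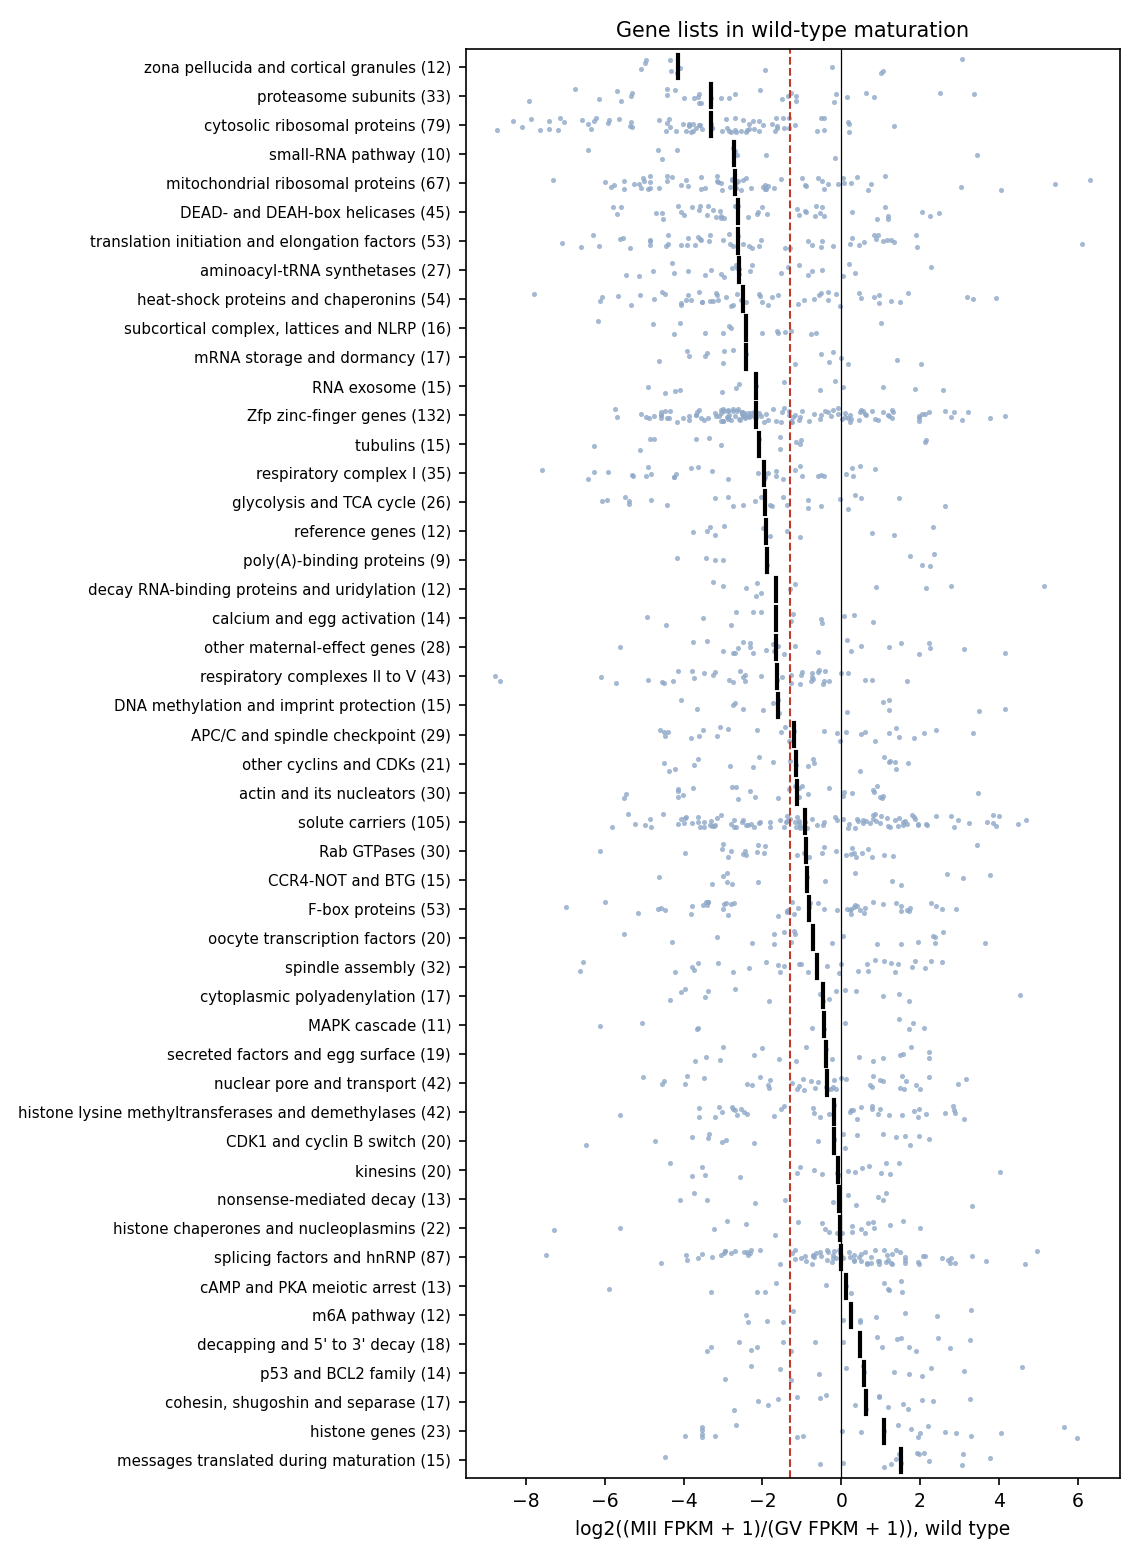
Each row is a gene list with its number of genes in brackets, each point 1 gene, and the x axis the log2 ratio of MII to GV FPKM in wild type; the black bar is the median of the list, the red dashed line the median of all 7923 genes (-1.29) and the thin line 0. The lists run from the zona pellucida and cortical granules (-4.13) to the messages translated during maturation (1.53), and most lists hold members on both sides of 0.

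The genes of most extreme ratio, among those of at least 50 FPKM in a library and above 0 in both, were of different kinds at either end. The 10 lowest had 6 ribosomal protein genes, the ribosomal pseudogene Rpl34-ps1, the chaperonin subunit Cct5, the ribonuclease gene Rnaset2a and the vesicle fusion gene Stx5a. Cct5 had 233 and 0.055 FPKM, and 213.5 and 15.6 in the Erk-/- pair. Stx5a had 250 and 0.376, and 206 and 19.2 in that pair. The 10 highest were Agk, Fam60a, Zdhhc13, Myef2, Tgds, Khsrp, Aebp2, Sc5d, Tapt1 and Mxd1, all with 6.24 FPKM or less at GV. Fam60a, a subunit of the SIN3 histone deacetylase complex, had 0.037 and 59.2 FPKM, and 0.047 and 46.9 in the Erk-/- pair. Tgds had 1.69 and 126, Myef2 had 0.774 and 83.4, and both were as low in Erk-/- GV oocytes (1.34 and 0.052). For Agk, Zdhhc13, Aebp2, Sc5d and Mxd1 the Erk-/- GV library held more, between 7.16 and 23.0 FPKM, and their ratios there were smaller.

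Transcript structure ran with the ratio. Annotated coding transcripts were found for 7678 genes, and the median 3′ UTR was 754 bases in lower genes, 1093 in genes within 2-fold and 1184 in higher genes. In 5 equal groups by 3′ UTR length the median log2 ratio ran from -2.35 in the shortest to -0.59 in the longest, through -1.76, -1.32 and -0.81. Across these genes, which are not independent, the Spearman correlation was 0.21 in wild type and 0.16 in the Erk-/- pair. GC3, the share of G and C at the last codon position, was 61.1% in lower and 56.5% in higher genes (Spearman -0.16), and the median log2 ratio ran from -0.45 in the lowest of 5 GC3 groups to -1.96 in the highest. The AU-rich motif TATTTAT lay in the 3′ UTR of 36.6% of higher and 21.1% of lower genes, beside 25.9% of 20304 coding transcripts, and the Pumilio motif TGTANATA in 30.8% and 19.8%, beside 22.1%. Only the sense strand was searched, and both motifs have more chances in a longer 3′ UTR. Ribosomal protein mRNAs are known for a run of pyrimidines at their 5′ end. A run of at least 6 C or T that begins with C within 10 bases of the annotated start was present in 29 of 60 ribosomal protein promoters and 18.2% of all promoters (RefSeq). The median log2 ratio of genes with and without it was -1.23 and -1.32.

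Of the features examined, the polyadenylation element gave the widest separation. TTTTAT or TTTTAAT was searched on the sense strand in the 100 bases before the last AATAAA or ATTAAA of the transcript (up to 2 bases of overlap with the hexamer), which 6121 genes had. Overlapping matches of these orders were counted apart. It was present in 1243 of them (20.3%), and in 17.0% of 14847 annotated transcripts with such a hexamer. The median log2 ratio was -1.54 in the 4878 genes without it, 0.60 in 1014 with 1 element, 1.39 in 201 with 2 and 2.21 in 28 with 3 or more. Genes 2-fold higher were 17.8%, 41.1%, 57.7% and 82.1% of these groups, and genes 2-fold lower 57.8%, 26.7%, 16.4% and 3.57%. The Erk-/- pair showed the same order, with medians of -0.29, 0.54, 1.18 and 1.24. Genes with no hexamer in the last 50 bases of their annotated transcript numbered 1557 and had a median of -2.37. Elements within 30 bases of the hexamer went with a median of 1.01, those at 31 to 60 bases with 0.58 and those at 61 to 100 bases with 0.50.

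Read from the ratio, 4.45% of genes at least 32-fold lower had the element, then 5.95% from 8- to 32-fold lower, 13.2% from 2- to 8-fold lower and 24.3% within 2-fold. The share was 38.2% in genes 2- to 8-fold higher and 43.3% in genes at least 8-fold higher. Tgds, 1 of the 10 highest, had 4 elements. Plat, Cnot7 and Bub1b had 2 each, Bcl2l10, Tcl1, H1foo, Khsrp and Gdf9 had 1 each, and Mos and Ccnb1 had neither order of letters in this window. These counts are for 1 annotated transcript per gene, and whether oocytes use its 3′ end was not tested. The element was also present in 305 lower genes, among them Fbxo5, Dnmt1, Csda, Ttk, Exosc4 and Ythdf2 with 1 each. By list the element and the median did not always go together. The largest shares were 6 of 10 genes in the list of decay RNA-binding proteins (median -1.66) and 5 of 11 in DNA methylation and imprint protection (median -1.60), both lower at the median, and cohesin with a median of 0.63 had 2 of 15. Further, 6 of 14 messages translated during maturation and 6 of 14 genes of the p53 and BCL2 family carried it, beside 2 of 28 proteasome subunits, 1 of 37 genes of complexes II to V and 8 of 66 cytosolic ribosomal protein genes.

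**Figure D4:**
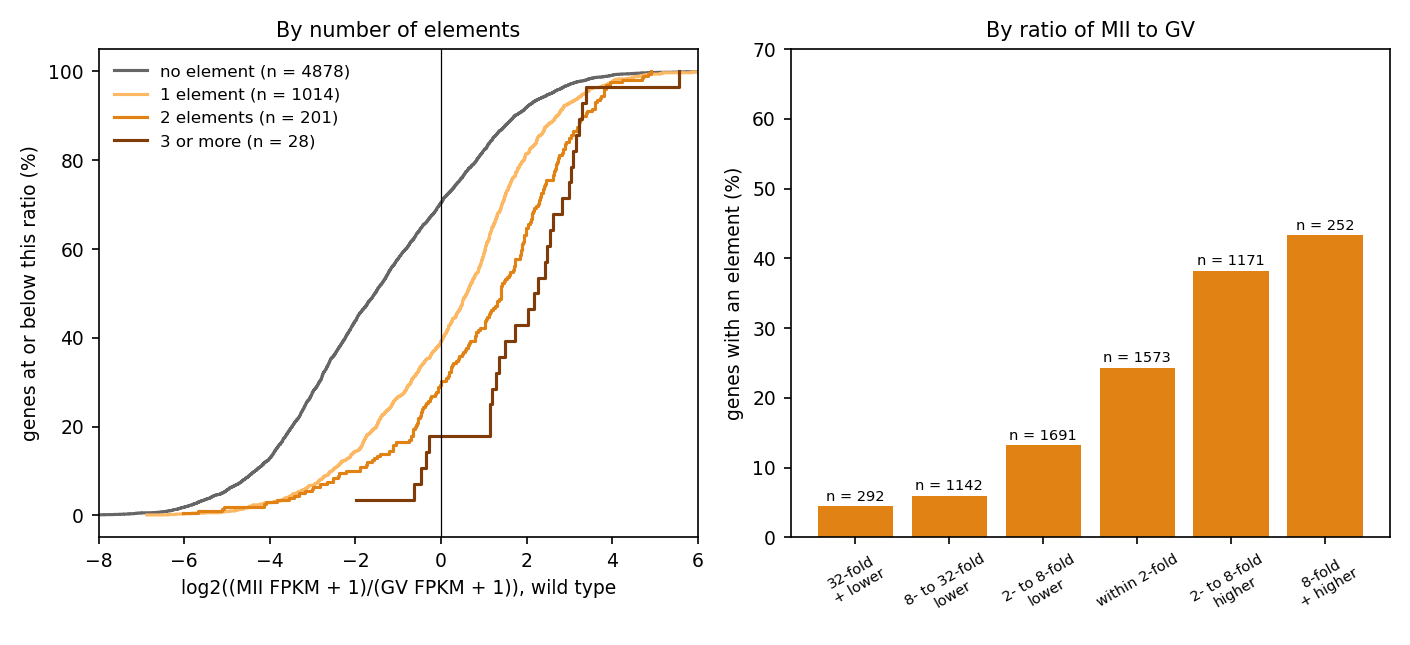
Left, the cumulative share of genes (y axis, percent) at or below each log2 ratio of MII to GV FPKM in wild type (x axis), for genes with 0, 1, 2 and 3 or more elements. Right, the share of genes with an element (bars, percent) in 6 classes of the ratio, with the number of genes that have a hexamer; the curves shift to the right with each further element, and the bars rise from 4.45% to 43.3%.

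The element is rich in A and T, and genes differ in the base composition of this stretch, so it was also read within classes. In 4 equal groups by 3′ UTR length the medians without and with it were -2.45 and 0.58, -1.88 and 0.73, -1.18 and 0.95, and -0.80 and 0.62. In 4 groups by GC3 they ran from -0.88 and 0.75 to -2.08 and 0.83. In 4 groups by the A and T content of the stretch itself they were -2.57 and 0.15, -1.72 and 0.54, -0.97 and 0.49, and -0.31 and 1.0. The genes with the element had the higher median in each of these 12 classes, and the smallest difference, in the group richest in A and T, was 1.31. Other orders of the letters of TTTTAT were read among the 4878 genes with neither element, whose median was -1.54. They went with medians below the 0.73 of genes with the element but above -1.54. These were -0.71 for TTTATT (364 genes), -0.87 for TTATTT (486) and -0.80 for TATTTT (648). For TTTTTT, of another composition, the median was -0.27 (501 genes), also above -1.54, and for AAAAAA -1.71 (411). Whether the libraries differ in this way through mRNA amount or through poly(A) tail length cannot be told apart from FPKM.

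**Figure D5:**
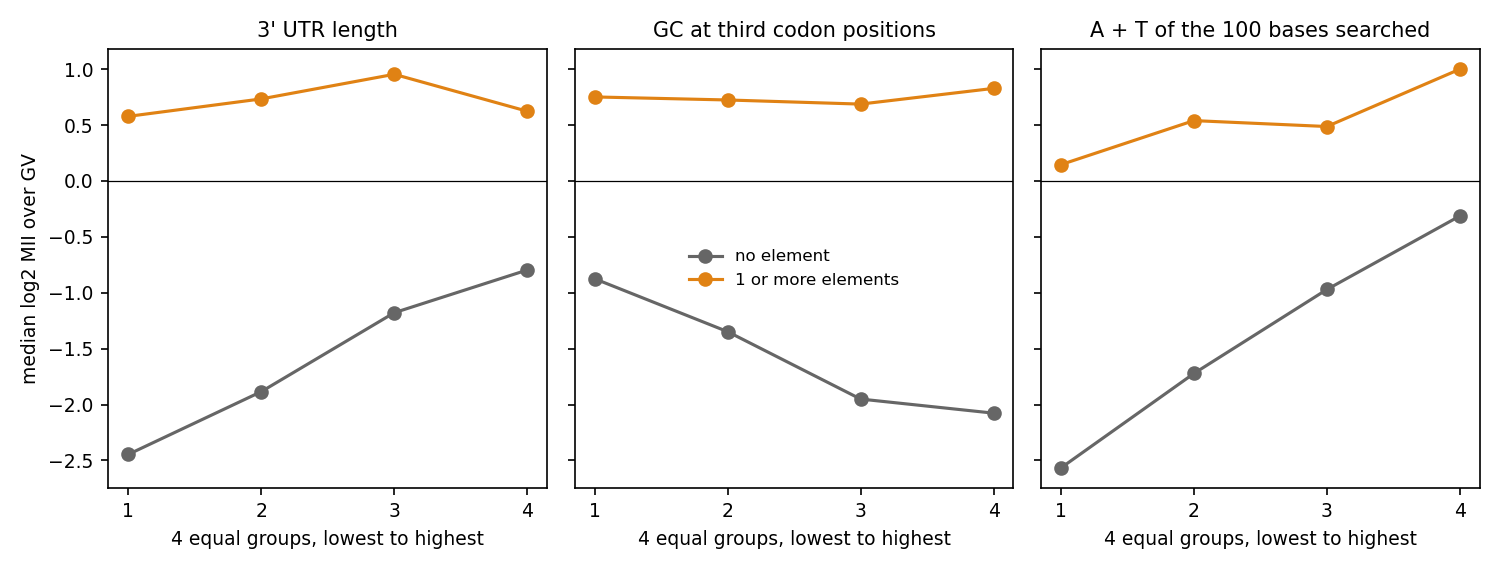
Median log2 ratio of MII to GV FPKM in wild type (y axis) for genes without the element (grey) and with 1 or more (orange), in 4 equal groups, from lowest to highest, of 3′ UTR length, of GC at the last codon position and of the A and T content of the 100 bases searched. The orange medians lie between 0.15 and 1.0 in all 12 classes and the grey ones between -2.57 and -0.31.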

How the data were processed

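Per the labels' protocols, mRNA of 60 lysed oocytes per library was sequenced paired-end on an Illumina HiSeq. The authors deposited FPKM per gene with lower and upper bounds, per the file headers, and the submitters' processing notes name CASAVA 1.8, TopHat and mouse build mm9. Not given in the sources used here were the program behind FPKM, its annotation, the confidence level, poly(A) selection, strand and the treatment of shared reads. Depth is unknown from FPKM, and the bounds give a relative depth of 1.02 for MII against GV over 1926 genes. In 1018 rows at GV and 709 at MII the value exceeded its upper bound, and no bound is quoted for them.

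Each file held 23813 rows. FPKM was summed per symbol (260 symbols were on several rows), and genes with 5 FPKM in a library were compared as log2((MII + 1)/(GV + 1)), in Python 3.11.15 with pandas 2.3.3 and numpy 2.4.6. Folds of named genes are plain FPKM ratios, with no 1 added. Positions are mm9 as in the files, with 1 added to each start, since starts count from 0 (9265 of 21484 RefSeq gene lengths matched, against 567 for the other reading). Transcript features came from GENCODE M21 (GRCm38), matched by symbol for 7865 genes, taking lengths and letters and no coordinates, and promoters from RefSeq for 6431. For each symbol 1 transcript was taken, a coding one where present, by the annotation's principal tag and then by length.

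The members, the 50 gene lists and the alternatives were chosen with earlier results of these data known. Named genes were the 10 highest and lowest ratios among genes on 1 row with 50 FPKM and above 0 in both libraries, the 10 most abundant per library, per list the 6 largest ratios at 10 FPKM or more and the 2 nearest 0, and 29 genes chosen singly. The element analysis, and its alternatives, were chosen after seeing the data. The ratio and the 2-fold rule were tested on simulated data. Their noise was smaller than the spread between the 2 GV libraries, so the calculation alone was checked. Some genes are not reported here.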

Additional observations from a re-analysis of the deposited data

Results flagged for a closer look

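For 11 of the 409 named genes the ratio was at least 2-fold in one direction in wild type and at least 2-fold in the other in the pair labelled Erk-/-. The difference was not tested, since each ratio rests on 1 library per stage. An exact 0, which can be a failed estimate, stood in some library for 10 of them, and 6 stayed below 5 FPKM in both libraries labelled Erk-/-.

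Rpl38, a ribosomal protein gene of the large subunit and the only one of them with no 0, had 354 FPKM at GV (bounds 319 to 389) and 0.768 at MII (0 to 4.05) in wild type, a log2 ratio of -7.65. In the libraries labelled Erk-/- it had 38.8 and 172 FPKM, a log2 ratio of 2.12. Among the genes listed at 0 at MII in wild type, 4 reached 5 FPKM in a library labelled Erk-/-. Their log2 ratios in wild type and in that pair were -6.003 and 2.69 for the mitochondrial ribosomal protein gene Mrpl42, -5.16 and 1.91 for the F-box gene Fbxo40, -4.96 and 1.23 for Zfp428, and -4.87 and 1.27 for Zfp511. Mrpl42 was also listed at 0 in the Erk-/- GV library and had only 5.47 FPKM at MII there, so its second ratio is uncertain too.

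The remaining 6 missed the 5 FPKM limit in that pair, so a reversal cannot be read from them. Zfp36l2, which encodes a decay factor for AU-rich mRNA, had 7.05 FPKM at GV (6.03 to 8.09) and a listed 0 at MII in wild type (-3.01), then a listed 0 and 1.45 FPKM. The wild-type log2 ratios of the others were -4.48 for Cdk4, -4.74 for Zfp94, -2.99 for Tob1, 4.04 for Hist1h1a and 5.66 for Hist1h2bj. Over all 7923 genes compared, 347 lower in wild type were higher in the other pair, and 92 higher ones were lower there.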

How the results depend on the processing

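No paired analysis was possible because each stage has 1 library, and for the same reason no library could be left out. A pseudocount of 0.1, a minimum of 10 or 1 FPKM, symbols on 1 row only and ratios between the nearest deposited bounds kept the numbers of higher and lower genes within 1.5 times of 1716 and 4273, and so did leaving out genes listed at 0 and the median-of-ratios factor. With that factor the median log2 ratio was -0.54 and the higher share 41.7%. Without a minimum the median of all genes, the difference between the longest and shortest transcripts and the difference with and without the polyadenylation element were 0.0, since most genes are then at or near 0 in both libraries. Leaving out genes listed at 0 reduced the length difference from 1.51 to 0.98. The element difference was 2.28, and 1.805 to 2.62 under every other alternative run. No list or named gene that was 2-fold apart changed sign. Of the 49 lists, 13 medians closer to 0 did with the factor, 6 at 10 FPKM and 4 without genes listed at 0. The bounds limit low genes most, with a median half-width at GV of 12.6% of the value at 5 to 20 FPKM and 4.23% from 100 FPKM. Rows whose value exceeded its upper bound were left out of these medians.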
